A study of Mus musculus with 20 samples.

Results

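The Kruppel-like factors (KLFs) described here are Klf2, Klf3, Klf4, Klf5, Klf6, Klf7, Klf9, Klf10, Klf13 and Klf15. Their probes were found by the gene name that the array annotation gives, control spots left aside, and came to 12 probes for 10 genes among 39429 probes for 30222 genes. Klf13 had 3 probes and each other member had 1, all of 60 bases.

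Gene expression was measured in mouse dorsal root ganglion (DRG) neurons from NIH Swiss embryos of day 13.5, grown in compartmented chambers so that axons could be driven by extracellular pulses (biphasic, 6 V, 0.2 ms). Unstimulated neurons were compared with neurons driven for 2 hr or 5 hr in bursts, either 18 spikes at intervals of 1 min (18/1) or 90 spikes at intervals of 5 min (90/5), so that the patterns hold equal numbers of spikes and differ in how these are grouped in time. Each of these 5 conditions had 4 samples on 2 arrays with 2 colours, Cy3 and Cy5, and both colours of an array held the same condition. All groups, unstimulated included, came from cultures raised with nerve growth factor and serum, treated with fluorodeoxyuridine against dividing non-neuronal cells, and kept without nerve growth factor and serum overnight before stimulation, and the methods state that the cultures of a condition were pooled. P-values therefore measure the spread between samples within conditions, part of which may be technical. For each gene this spread was estimated once, over all 20 samples of the 5 conditions.

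KLFs are transcription factors with 3 C-terminal zinc fingers that bind GC-rich and CACCC-type DNA elements, next to N-terminal regions that recruit coactivators or corepressors. Several respond quickly to extracellular signals, and in neurons of the central and peripheral nervous system members of the family act both for and against axon growth. Klf4 and Klf9 are known as suppressors of neurite growth, and Klf6 and Klf7 as promoters of it.

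The zinc fingers are the part of these genes that is most alike, and 2 probes of the set show this. Of the pairs that the 12 member probes formed with all 39 probes of KLF and Sp genes on the array, Klf13 and Klf5 had the longest similar stretch, in which 29 of 40 bases (72.5%) are identical. The sequences are those that the array files give, and capitals mark the aligned stretch.
Klf13: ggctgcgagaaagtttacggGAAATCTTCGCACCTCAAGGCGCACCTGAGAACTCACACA
Klf5: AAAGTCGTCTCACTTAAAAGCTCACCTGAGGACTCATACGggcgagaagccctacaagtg
The Klf13 probe shown is the one of its 3 that stands for the gene in the tests.

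Promoter sequence was available for 8 of the 10 members, as windows from 250 bases before to 50 bases after the gene start (RefSeq, GRCm38.p6). The core site of the cAMP response element, TGACG on either strand, is shown because CREB binds such elements in neurons that fire, and Klf2, Klf3, Klf4, Klf9, Klf13 and Klf15 hold it. It occurs in 6 of these 8 windows and in 20.8% of all 32851 windows of that table. The lines give 30 bases around each match, 5′ to 3′ on the strand of the gene, with the match in capitals.
Klf2 chr8:72318812-72318841: ctggtttgtTGACGccgtcgccatagggac
Klf3 chr5:64803528-64803557: gagcggcgccggCGTCAtgtgactgcccag
Klf4 chr4:55532690-55532719: ctgcctggctggCGTCAcggcctggccccg
Klf9 chr19:23141168-23141197: gggcctggattgTGACGtgatgggattctg
Klf13 chr7:63938954-63938983: gtggctgggggcTGACGtcgggtccagatg
Klf15 chr6:90462486-90462515: ggcgggggcgcgTGACGcgcggcgctagcc
Klf15 chr6:90462558-90462587: cggcgcccgcggCGTCAcgtgagcggccgg
Counted from the gene start, the matches begin between positions -241 and 20. The full palindrome TGACGTCA, which contains the core site, is in none of the 8 windows and in 1.79% of all windows. The AP-1 element TGACTCA is in none of the 8 and in 5.2% of all. GGGCGG, a GC box, is in 7 of the 8 windows against 35.7% of all, CACGTG in those of Klf4, Klf6 and Klf15 against 7.15%, and CCACCC, the CACCC-type element, in 4 against 31.5%. The median GC content was 70.7% for the member windows and 52.7% for all of them, so that letters rich in G and C are more frequent in these windows on that ground alone. A match of letters is a description of the sequence and says nothing of binding.

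Signals are given as log2 of the background-corrected and normalised intensity, in the order Cy3 then Cy5 of the first array and Cy3 then Cy5 of the second. Levels of different probes are not set against each other. Klf5, Klf6, Klf7, Klf9, Klf10 and Klf13 passed a spot filter in all 20 samples, as did 10355 genes in total. The filter asks that a spot reach 2 times its local background and carry no mark for non-uniform spots. Klf2, Klf3, Klf4 and Klf15 did not, and were tested with the filter asked for in all 4 samples of at least 1 condition, which 18744 genes passed. Each of these 4 passed in at least 2 conditions. A gene was called where limma's adjusted p over all genes of that fit was under 0.05.

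The arrays differed in quality in a way that follows the conditions. The unstimulated and the 18/1 2 hr samples shared slide 1, the 18/1 5 hr and the 90/5 2 hr samples shared slide 2, and the 90/5 5 hr samples were on slide 3. The mark for non-uniform spots was carried by 6 to 85 of the 43020 spots in samples of slides 1 and 3, by 45 to 6476 at 90/5 2 hr and by 5319 to 14642 at 18/1 5 hr. The comparisons of 18/1 2 hr with unstimulated neurons and of 90/5 2 hr with 18/1 5 hr lie within 1 slide, and in every other comparison slide and condition cannot be told apart. Nr4a1, an immediate-early nuclear receptor, rose in each stimulated condition (log2 differences of 4.54, 4.44, 4.76 and 5.51 for 18/1 2 hr, 18/1 5 hr, 90/5 2 hr and 90/5 5 hr). All 10 sensory neuron markers, such as Prph and Calca, were well above background in all 20 samples. At 18/1 5 hr, 90/5 2 hr and 90/5 5 hr 0 of them was called against unstimulated neurons. Of all genes, 44.4%, 6.97% and 0.0676% were. The log2 of the markers' summed signal was 18.5 to 19.1, 18.8 to 19.1 and 18.7 to 19.6 in these conditions, against 19.0 to 19.1 in unstimulated neurons. Their median difference at 18/1 5 hr was -0.32, against -0.23 for all genes.

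At 18/1 5 hr against unstimulated neurons, 2 of 6 members were called with the filter in all samples, where 44.4% of all genes were. With the filter within a condition 5 of 10 were called, against 36.8% of all genes. All of these calls but that of Klf10 were lost in some runs that left out 1 array. Klf10, Klf4 and Klf3 were higher by 1.20, 1.31 and 0.88 on the log2 scale, and Klf6 was lower, by -0.99. The readings of Klf2 were lower too, but mostly not well above background. Klf10 and Klf6 were the 2 members called of the 6 that passed the filter in all samples, where 44.4% of all genes were called, 15% higher and 29.5% lower. With each sample scaled by its median alone, instead of giving all arrays the same distribution of average intensity (Aquantile), the 2 called were Klf6 (-1.64, adjusted p = 0.000688) and Klf9 (-1.18, adjusted p = 0.0477, against -0.75 and 0.19), and Klf10 was not. Klf4, Klf3 and Klf2 were called with the filter within a condition, where 36.8% of all genes were, 13.5% higher and 23.3% lower. In that fit 3 of the 10 members were called higher and 2 lower, Klf10 and Klf6 among them. The share of members called was thus below that of all genes in the first fit and above it in the second, and neither gap was tested. The median difference was -0.21 over the 6 members of the first fit and -0.23 over all its genes. In bulk samples, fewer cells of a type and less RNA per cell cannot be told apart.

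**Figure D1:**
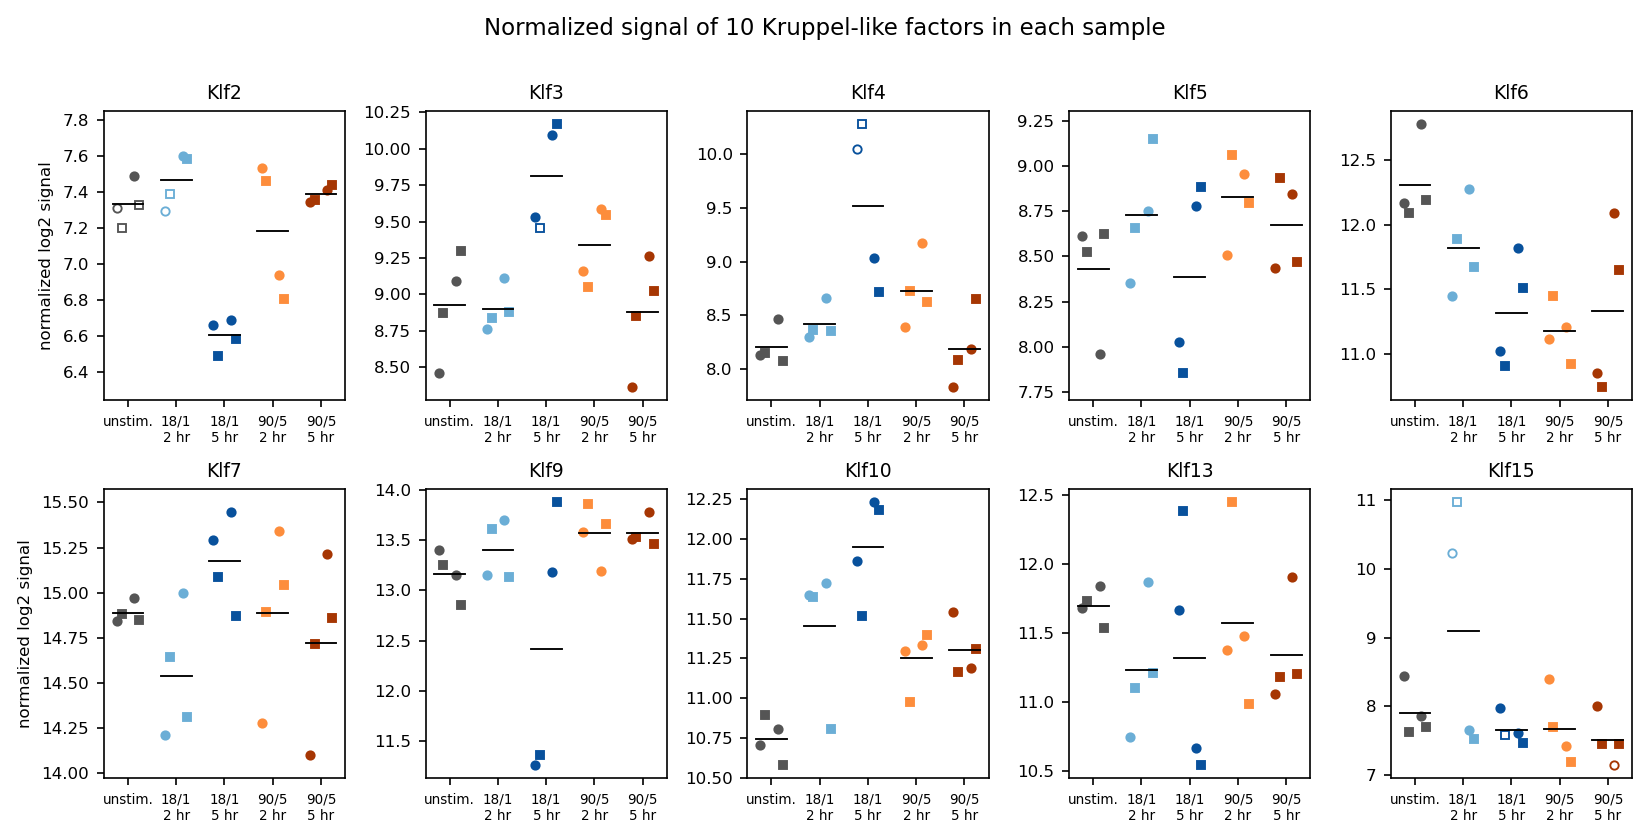
Normalised log2 signal of each member's probe in all 20 samples, 1 panel per probe with its own vertical scale, by condition on the horizontal axis. Circles are Cy3 and squares Cy5, the left pair of a condition is its first array and the right pair its second, open symbols failed the spot filter and the black line is the mean of 4 samples. The 18/1 5 hr samples of Klf10 all lie above the unstimulated ones, and those of Klf9 split between the arrays.

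Klf10 encodes a repressor first described as an early response gene of TGF-beta signalling. Its probe (A_55_P2022074, chr15:38224255-38224314, minus strand, mouse build NCBI37) read 10.71, 10.89, 10.81 and 10.58 in unstimulated neurons. It read 11.65, 11.64, 11.72 and 10.80 at 18/1 2 hr and 11.86, 11.52, 12.23 and 12.18 at 18/1 5 hr. It read 11.30, 10.97, 11.34 and 11.40 at 90/5 2 hr and 11.54, 11.16, 11.19 and 11.31 at 90/5 5 hr. All 4 samples of 18/1 5 hr, of 90/5 2 hr and of 90/5 5 hr were above every unstimulated sample, and 3 of 4 were at 18/1 2 hr, where 1 sample fell within the unstimulated range.

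The difference for Klf10 at 18/1 5 hr was 1.20 (SE 0.28, 95% interval 0.61 to 1.78, adjusted p = 0.00191, limma), a fold of 2.295. It stayed called with each sample or array left out in turn (0.94 to 1.46). With scaling by medians alone it was 0.49 (adjusted p = 0.266). At 18/1 2 hr it was 0.71 (SE 0.28, unadjusted p = 0.0201, adjusted p = 1, limma), within a slide, where 0.0193% of all genes were called and 0.888% had an unadjusted p under 0.05. At 90/5 2 hr it was 0.50 (adjusted p = 0.294) and at 90/5 5 hr 0.55 (adjusted p = 1), with intervals of -0.08 to 1.09 and -0.03 to 1.14. Of all genes, 19.7% had all 4 samples above the unstimulated ones at 18/1 5 hr, 11.6% at 90/5 2 hr and 5.39% at 90/5 5 hr.

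Klf6 encodes an activator that is induced by injury in several tissues. Its probe (A_51_P451346, chr13:5869371-5869430, plus strand) read 12.17, 12.09, 12.78 and 12.19 in unstimulated neurons. It read 11.45, 11.89, 12.28 and 11.67 at 18/1 2 hr and 11.02, 10.91, 11.82 and 11.51 at 18/1 5 hr. It read 11.12, 11.45, 11.21 and 10.92 at 90/5 2 hr and 10.85, 10.74, 12.09 and 11.65 at 90/5 5 hr. The unstimulated samples were above all samples of 18/1 5 hr, of 90/5 2 hr and of 90/5 5 hr, the last by a margin smaller than the rounding, and overlapped those of 18/1 2 hr. Of all genes, 33.9%, 14.7% and 6.2% had all 4 samples below the unstimulated ones in the first 3 of these.

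Klf6 fell at 18/1 5 hr by 0.99 (SE 0.34, 95% interval -1.70 to -0.28, adjusted p = 0.0233, limma), a fold of 1.989 downwards. It was the 1 member called at 90/5 2 hr (-1.13, SE 0.34, adjusted p = 0.049), where 6.97% of all genes were called, 3.39% lower. At 90/5 5 hr it was -0.97 (unadjusted p = 0.0097, adjusted p = 0.938), where 0.0676% of all genes were called and 3.69% had an unadjusted p under 0.05. At 18/1 2 hr it was -0.48 (95% interval -1.20 to 0.23). The 3 differences past the unadjusted threshold share the same 4 unstimulated samples. With a sample or array left out, that at 90/5 5 hr ran from -1.51 (array 10) to -0.44 (array 9), arrays whose means lay 1.07 apart, and that at 18/1 5 hr from -1.34 to -0.64. The call at 18/1 5 hr was lost without array 1 (-1.17, adjusted p = 0.0653), array 2 (-0.81, 0.178), array 5 (-0.64, 0.177), unstimulated replicate 3 (-0.87, 0.0533) or 90/5 5 hr replicate 4 (-0.99, 0.0522). The call at 90/5 2 hr was lost in 19 of 30 such runs (-1.31 to -0.95, adjusted p from 0.0154 to 0.378), and with scaling by medians alone (-0.98, 0.126). Endothelial markers were lower there as well. The log2 of the summed signal of 4 such markers was 10.01 to 10.98 at 90/5 2 hr and 11.2 to 11.7 in unstimulated neurons, with no overlap, and with the filter within a condition 1 of 3 tested was called, Kdr, a VEGF receptor (-1.24, adjusted p = 0.0309). Their part in the difference of Klf6 was not tested.

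**Figure D2:**
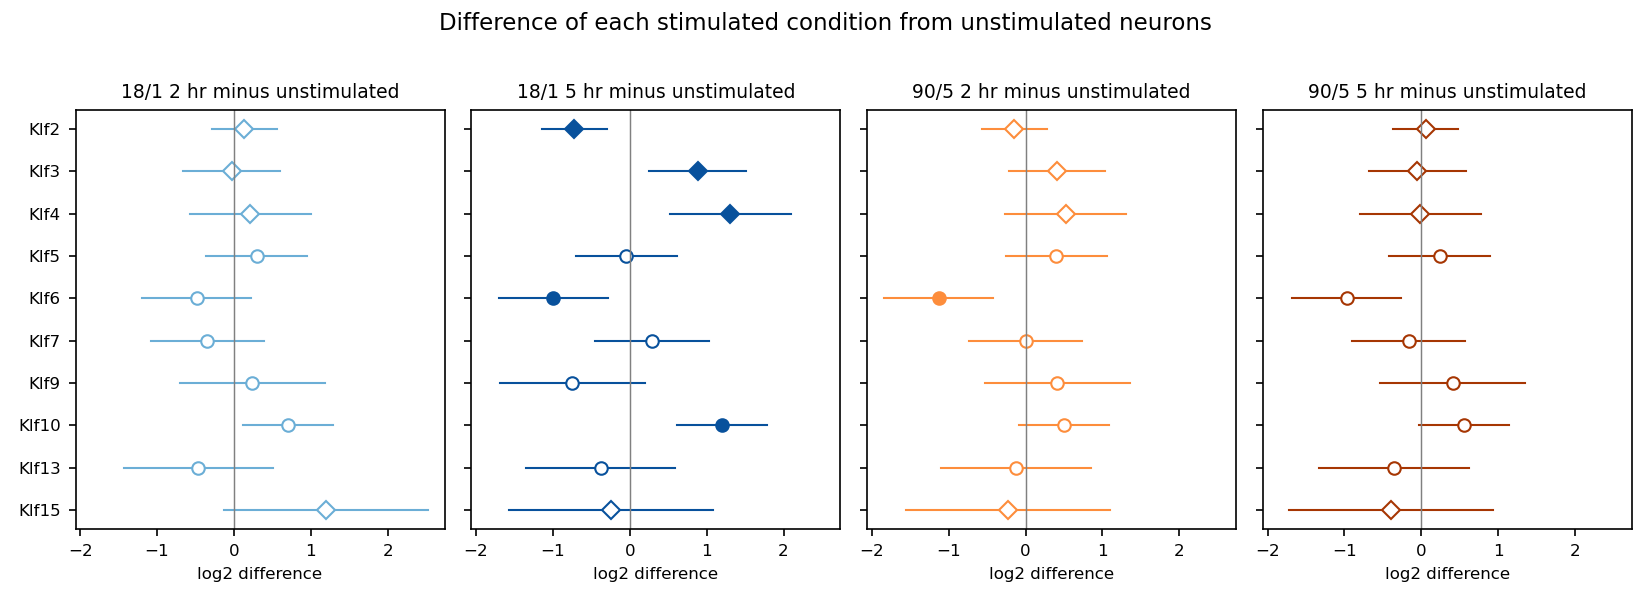
Log2 difference of each member between each stimulated condition and unstimulated neurons, with its 95% interval. Circles are members that passed the filter in all 20 samples and diamonds those tested with the filter within a condition, and filled symbols are called. At 18/1 5 hr against unstimulated neurons Klf10, Klf4 and Klf3 lie above 0 and Klf6 below it, while the point of Klf2 rests on a probe well above background in 1 of 4 samples at 18/1 5 hr and that of Klf7 on saturated spots.

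Klf4 encodes a repressor and activator best known as a reprogramming factor. Its probe (A_55_P2122020, chr4:55540167-55540226, minus strand) read 8.14, 8.15, 8.47 and 8.08 in unstimulated neurons. It read 8.30, 8.37, 8.66 and 8.35 at 18/1 2 hr and 10.04, 10.27, 9.03 and 8.72 at 18/1 5 hr. It read 8.40, 8.72, 9.18 and 8.62 at 90/5 2 hr and 7.84, 8.09, 8.19 and 8.65 at 90/5 5 hr. The 4 samples of 18/1 5 hr were above every unstimulated sample, and the 2 highest, both of array 5, came from spots marked as non-uniform, which is why Klf4 did not pass in all 20 samples. With the filter within a condition, 19.7% of all genes lay above the unstimulated samples in this way and 32.7% below. Klf4 rose by 1.31 at 18/1 5 hr (SE 0.38, 95% interval 0.52 to 2.10, adjusted p = 0.0112, limma), a fold of 2.478, and without array 5 the difference was 0.67 (adjusted p = 0.109). The call was lost, at a like size, without array 1 (1.24, adjusted p = 0.101) or array 2 (1.37, 0.0634). At 90/5 5 hr against unstimulated neurons the difference was -0.02 (95% interval -0.80 to 0.77).

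Klf3 encodes a repressor that works through the CtBP corepressors. Its probe (A_55_P1972842, chr5:65221309-65221368, plus strand) read 8.46, 8.87, 9.09 and 9.29 in unstimulated neurons. It read 8.76, 8.84, 9.11 and 8.88 at 18/1 2 hr and 9.53, 9.46, 10.09 and 10.17 at 18/1 5 hr. It read 9.16, 9.05, 9.59 and 9.55 at 90/5 2 hr and 8.36, 8.85, 9.27 and 9.02 at 90/5 5 hr. The 18/1 5 hr samples were above every unstimulated sample, as they were for 19.7% of all genes, and 1 of their spots was marked as non-uniform. Klf3 rose at 18/1 5 hr by 0.88 (SE 0.30, 95% interval 0.26 to 1.51, adjusted p = 0.0273, limma), a fold of 1.846. The call was lost without array 1 (0.62, adjusted p = 0.262), array 2 (1.15, 0.0516), array 3 (0.88, 0.0525), array 6 (0.57, 0.124), unstimulated replicate 1 (0.77, 0.0504) or 90/5 5 hr replicate 4 (0.88, 0.0535). With scaling by medians alone Klf3 stood at 0.20 (adjusted p = 0.659) and Klf4 at 0.72 (adjusted p = 0.152).

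Klf2 encodes an activator known from endothelial cells and quiescent T cells. Its probe (A_51_P144264, chr8:74845137-74845196, plus strand) read 7.31, 7.20, 7.48 and 7.33 in unstimulated neurons. It read 7.30, 7.39, 7.60 and 7.58 at 18/1 2 hr and 6.66, 6.49, 6.69 and 6.59 at 18/1 5 hr. It read 7.53, 7.46, 6.94 and 6.81 at 90/5 2 hr and 7.35, 7.35, 7.41 and 7.43 at 90/5 5 hr. The 18/1 5 hr samples were below every unstimulated sample, as they were for 32.7% of all genes, and the probe was well above background in 1 of 4 samples there and at 90/5 2 hr against all 4 in each of the others. It reached 2 times its background in 1 of 4 unstimulated samples and in 2 of 4 at 18/1 2 hr. The fit gave Klf2 at 18/1 5 hr an adjusted p of 0.00969 (limma), but 3 of the 4 readings there were not well above background. No fitted value of Klf2 is therefore taken as a size in this or any other comparison with 18/1 5 hr. The call was lost without array 1 (adjusted p = 0.0586) or array 2 (0.111).

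Markers of other cell types moved in the same comparison. Of 4 endothelial markers, Pecam1, an adhesion molecule, was lower at 18/1 5 hr by -1.35 (adjusted p = 0.000908) and Kdr by -2.26 (adjusted p = 6.12e-05, filter within a condition). The log2 of the summed signal of the 4 was 9.39 to 9.89 at 18/1 5 hr and 11.2 to 11.7 in unstimulated neurons, with no overlap, and 1 of the 4 was well above background in all 20 samples. Of 6 fibroblast markers, Col1a1, a collagen chain, was higher by 1.79 (adjusted p = 0.00801), and the sum of the 6 was 16.0 to 16.2 against 14.1 to 15.4. Among 8 glial markers, of which Erbb3 was well above background in no sample, 2 were lower with the filter within a condition, among them the transcription factor Sox10 (-0.74), and the sum was 15.2 to 16.4 against 16.1 to 16.3. Of 4 macrophage markers, 1 was higher with the filter within a condition, and the sum was 13.3 to 14.9 against 14.3 to 14.9. The part of these cell types in the readings of Klf2 and the differences of the other members was not tested.

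Klf9 encodes a repressor induced by glucocorticoid and thyroid hormones. Its probe (A_65_P19780, chr19:23240410-23240469, plus strand) read 13.40, 13.25, 13.15 and 12.86 in unstimulated neurons. It read 13.16, 13.61, 13.71 and 13.14 at 18/1 2 hr and 11.26, 11.36, 13.19 and 13.88 at 18/1 5 hr. It read 13.58, 13.87, 13.19 and 13.66 at 90/5 2 hr and 13.51, 13.54, 13.78 and 13.46 at 90/5 5 hr. Both colours of array 5 were below every other sample, and both colours of array 6, of the same condition, lay close to the samples of the other conditions. The means of these arrays were 2.23 apart on the log2 scale. All 4 samples of 90/5 5 hr were above every unstimulated sample (difference 0.41, 95% interval -0.54 to 1.35, adjusted p = 1, limma), as they were for 5.39% of all genes.

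**Figure D3:**
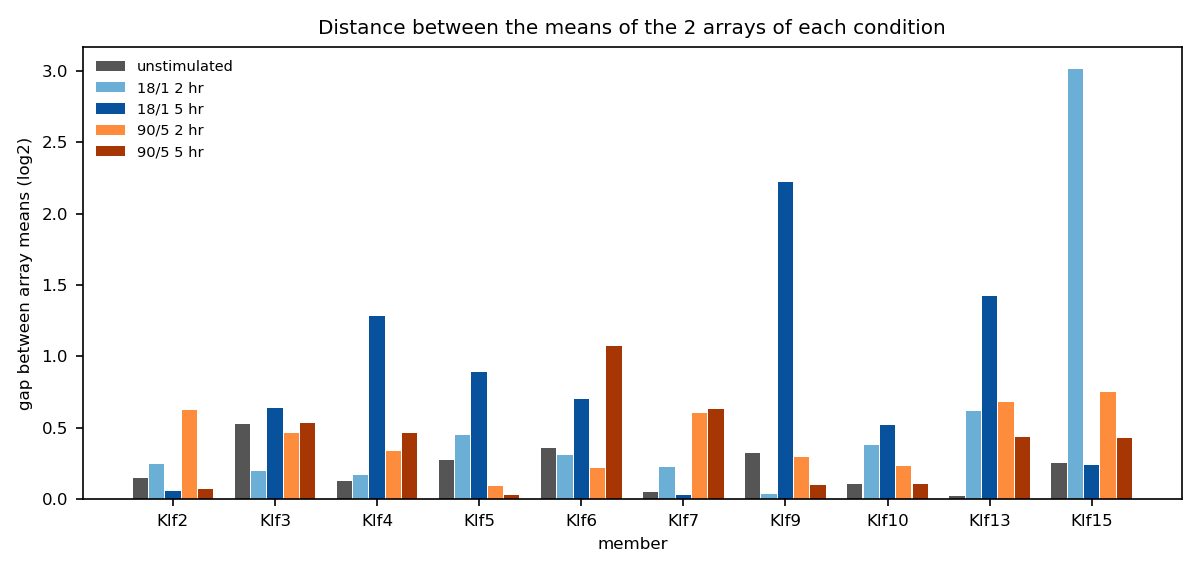
Gap between the means of the 2 arrays of a condition, as log2 units, for each member's probe and each condition. The gaps are widest for Klf15 at 18/1 2 hr (3.02) and for Klf9 at 18/1 5 hr (2.23), and Klf13 and Klf4 follow at 18/1 5 hr (1.42 and 1.28).

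Klf7, an activator needed for the development of sensory neurons, was read by a probe at chr1:64082265-64082324, minus strand (A_55_P2040996). It read 14.84, 14.88, 14.97 and 14.85 in unstimulated neurons and 14.21, 14.64, 15.00 and 14.31 at 18/1 2 hr. It read 15.29, 15.09, 15.45 and 14.87 at 18/1 5 hr, where all 4 spots were saturated. It read 14.28, 14.90, 15.34 and 15.04 at 90/5 2 hr, with both spots of array 8 saturated, and 14.10, 14.72, 15.21 and 14.86 at 90/5 5 hr. The conditions overlapped, and saturated spots carry a clipped value. No difference is given for 18/1 5 hr, where 4 of 4 spots were clipped, or for 90/5 2 hr, where 2 of 4 were. At 18/1 2 hr and 90/5 5 hr, with 0 saturated spots, the differences were -0.35 and -0.16, neither called.

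Klf5, an activator of proliferating epithelial and smooth muscle cells, was read by a probe that spans an intron (A_51_P507290, chr14:99702656-99712388, plus strand). Its readings were 8.62, 8.52, 7.96 and 8.62 in unstimulated neurons and 8.35, 8.66, 8.75 and 9.15 at 18/1 2 hr. They were 8.03, 7.86, 8.78 and 8.89 at 18/1 5 hr, 8.51, 9.06, 8.95 and 8.80 at 90/5 2 hr and 8.44, 8.93, 8.85 and 8.47 at 90/5 5 hr. Every condition overlapped the unstimulated range, and the differences were 0.30, -0.04, 0.40 and 0.24 in the order 18/1 2 hr, 18/1 5 hr, 90/5 2 hr, 90/5 5 hr, with adjusted p from 0.48 to 1. The interval at 18/1 5 hr was -0.70 to 0.61.

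Klf13, a repressor and activator related to Klf9, had 3 probes. The probe that stands for the gene in the tests (A_55_P2022082, chr7:71082854-71082913, minus strand) read 11.68, 11.73, 11.84 and 11.53 in unstimulated neurons and 11.67, 12.38, 10.67 and 10.54 at 18/1 5 hr. It read 10.75, 11.10, 11.87 and 11.21 at 18/1 2 hr, 11.37, 12.45, 11.48 and 10.99 at 90/5 2 hr and 11.06, 11.18, 11.91 and 11.20 at 90/5 5 hr. At 18/1 5 hr array 5 was within or above the unstimulated range and array 6 below it. The second (A_55_P2244142, chr7:71032482-71032541), which the annotation puts on the plus strand whereas the gene lies on the minus strand, also read higher on array 5 (10.59 and 10.99) than on array 6 (9.54 and 9.38), with array 5 above its unstimulated range of 9.13 to 10.07 and array 6 within it. The dim probe (A_52_P281659) passed the filter in 8 of 20 samples, and its highest readings, 7.89 and 8.29 on array 5 and 7.93 and 8.33 on array 8, were all marked as non-uniform. At 18/1 5 hr against unstimulated neurons the first 2 gave -0.38 and 0.50, with intervals of -1.51 to 0.75 and -0.69 to 1.69, neither called, and no difference is given for the dim one, which failed the filter in all 4 unstimulated samples, so that no direction is given for Klf13.

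Klf15, a glucocorticoid-induced regulator of amino acid and lipid metabolism, was read at chr6:90425144-90425203, plus strand (A_55_P2022049). It read 8.44, 7.62, 7.86 and 7.69 in unstimulated neurons and 10.24, 10.97, 7.65 and 7.52 at 18/1 2 hr. It read 7.97, 7.58, 7.61 and 7.46 at 18/1 5 hr, 8.40, 7.70, 7.42 and 7.18 at 90/5 2 hr and 8.01, 7.44, 7.14 and 7.45 at 90/5 5 hr. The 2 high readings, both of array 3, were marked as non-uniform, and every other sample of the 5 conditions was at or below the highest unstimulated one. The difference at 18/1 2 hr was 1.19 (SE 0.63, 95% interval -0.13 to 2.52, adjusted p = 1, limma). That of 18/1 5 hr from 18/1 2 hr was -1.44 (adjusted p = 0.0819). It turned to 0.07 without array 3, and was -2.95 and called without array 4 (adjusted p = 0.00354).

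The question of whether the temporal pattern matters for the family was asked at 5 hr by comparing 90/5 with 18/1. Klf9 was higher with 90/5 (1.15, SE 0.45, 95% interval 0.21 to 2.10, adjusted p = 0.043, limma), the 1 member called of 6, where 45.4% of all genes were called, 29.6% higher. With the filter within a condition, where 38.2% of all genes were called, 23.9% higher and 14.3% lower, Klf3 (-0.94, adjusted p = 0.0197) and Klf4 (-1.32, adjusted p = 0.00987) were lower. The readings of Klf2 were higher with 90/5 (adjusted p = 0.00571), with the limit given above for 18/1 5 hr. Klf10 stood at -0.65 (95% interval -1.23 to -0.06, adjusted p = 0.066), from -0.90 to -0.39 with a sample or array left out, called in 5 of these 30 runs, and at 0.20 with scaling by medians alone. Klf6 stood at 0.02 (95% interval -0.69 to 0.73), and with scaling by medians alone at 0.90 (adjusted p = 0.038). Markers of other cell types moved in this comparison too. Of 4 fibroblast markers tested, 3 were lower with 90/5 (median -1.19, Col1a1 -1.81), and 1 of 6 with the filter within a condition, and Pecam1 (1.35) and, with the filter within a condition, Kdr (3.16), both endothelial, were higher. With that filter 1 of 7 glial markers was higher too. Their part in these differences was not tested. These comparisons set slide 3 against slide 2, and they share the 18/1 5 hr samples with the comparison above, so that the opposite signs of Klf3 and Klf4 in the 2 comparisons do not bear on each other. The differences from unstimulated neurons at 5 hr, side by side for 18/1 and 90/5, were 0.88 and -0.05 for Klf3, 1.31 and -0.02 for Klf4, -0.99 and -0.97 for Klf6 and 1.20 and 0.55 for Klf10.

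The value for Klf9 rests on array 5. Without it the difference between the patterns was 0.04 (adjusted p = 0.928), and without array 6 it was 2.27 (adjusted p = 6.04e-06). The call was lost in 15 of 30 runs that left out a sample or array, and with the filter within a condition the adjusted p was 0.0741. Of the other 3, Klf4 was lost without array 5 (-0.69, adjusted p = 0.0974) or array 9 (-1.09, 0.105). Klf3 was lost without array 6 (-0.62, adjusted p = 0.0944), array 9 (-0.67, 0.177) or 90/5 5 hr replicate 4 (-0.88, 0.0582), and Klf2 without array 10 (0.0601). With scaling by medians alone the calls of Klf2 (adjusted p = 0.0526), Klf3 (-0.19, 0.672) and Klf4 (-0.69, 0.16) were lost, and Klf9 stood at 1.71 (adjusted p = 0.00516).

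At 2 hr, 90/5 against 18/1 gave 0 members called of 6, and 0 with an unadjusted p under 0.05, where 4.96% of all genes were called and 19.6% had such a p. Klf15 stood at -1.42 there (unadjusted p = 0.0369, adjusted p = 0.236, filter within a condition, where 18.3% of all genes had an unadjusted p under 0.05), with the 2 non-uniform readings of 18/1 2 hr in it. Its probe was well above background in 2 of 4 samples at 90/5 2 hr, which limits this size. The difference was 0.085 without array 3 and -2.93 without array 4 (adjusted p = 0.0292). Between 18/1 5 hr and 18/1 2 hr, where 44% of all genes were called, 0 of 6 members were called, and Klf9 (-0.98, adjusted p = 0.084) was the 1 with an unadjusted p under 0.05, against 51.8% of all genes, and it stood at 0.13 without array 5 and at -2.10 without array 6 (adjusted p = 1.36e-05). With the filter within a condition, where 36.3% of all genes were called, 13.7% higher and 22.6% lower, Klf3 (0.91, adjusted p = 0.0236) and Klf4 (1.096, adjusted p = 0.0292) were higher at 18/1 5 hr, and the readings of Klf2 were lower (adjusted p = 0.00331), with the same limit. Of these, Klf4 was lost in 5 of 30 runs that left out a sample or array, at 0.46 without array 5 (adjusted p = 0.275), 1.01 without array 3 (0.176), 1.18 without array 4 (0.115), and also without array 1 (0.0553) or 18/1 2 hr replicate 4 (0.0584). Klf3 was lost without array 3 (0.81, adjusted p = 0.173), array 4 (1.01, 0.0867) or array 6 (0.60, 0.106), and Klf2 without array 4 (0.0735). With scaling by medians alone Klf3 stood at 0.25 (adjusted p = 0.568) and Klf4 at 0.50 (0.327), while Klf6, at -0.51 (0.238) under Aquantile, was called at -1.20 (0.00847) and Klf9 at -1.40 (0.0203). Endothelial markers were lower here as well, Pecam1, the 1 tested, by -1.30 (adjusted p = 0.00124) and 2 of 3 with the filter within a condition. Of 4 fibroblast markers tested 1 was higher, Col1a1 (1.403, adjusted p = 0.0325), and 0 with the filter within a condition, where 1 of 7 glial markers was lower and 1 of 4 macrophage markers higher. Their part in these differences was not tested. Between 90/5 5 hr and 90/5 2 hr, where 8.96% of all genes were called, 0 of 6 were called and 0 had an unadjusted p under 0.05, against 23.2% of all genes.

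On slide 2 alone, 90/5 2 hr can be set against 18/1 5 hr, a comparison in which pattern and duration both differ and 12.9% of all genes were called. The numbers of members called were 0 of 6 and, with the filter within a condition, 0 of 10, where 8.88% of all genes were called. Klf10 was lower at 90/5 2 hr in all 4 samples (-0.69, SE 0.28, unadjusted p = 0.022, adjusted p = 0.0999, limma), but stood at 0.067 with scaling by medians alone. Klf9 stood at 1.16 (unadjusted p = 0.0186, adjusted p = 0.0912), but at 0.045 without array 5 (adjusted p = 0.948) and at 2.27 without array 6 (2.89e-05), and it was called with scaling by medians alone (1.99, 0.00418). Klf2 gave higher readings in all 4 samples of 90/5 2 hr, but its probe was well above background in 1 of 4 samples of either condition, so that no difference is given. Of all genes, 30.6% had an unadjusted p under 0.05, 5.93% lay below the 18/1 5 hr samples as Klf10 did, and with the filter within a condition 13.1% lay above them as Klf2 did. Klf6 stood at -0.14, with an interval of -0.85 to 0.57, and at 0.66 (adjusted p = 0.134) with scaling by medians alone.

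**Figure D4:**
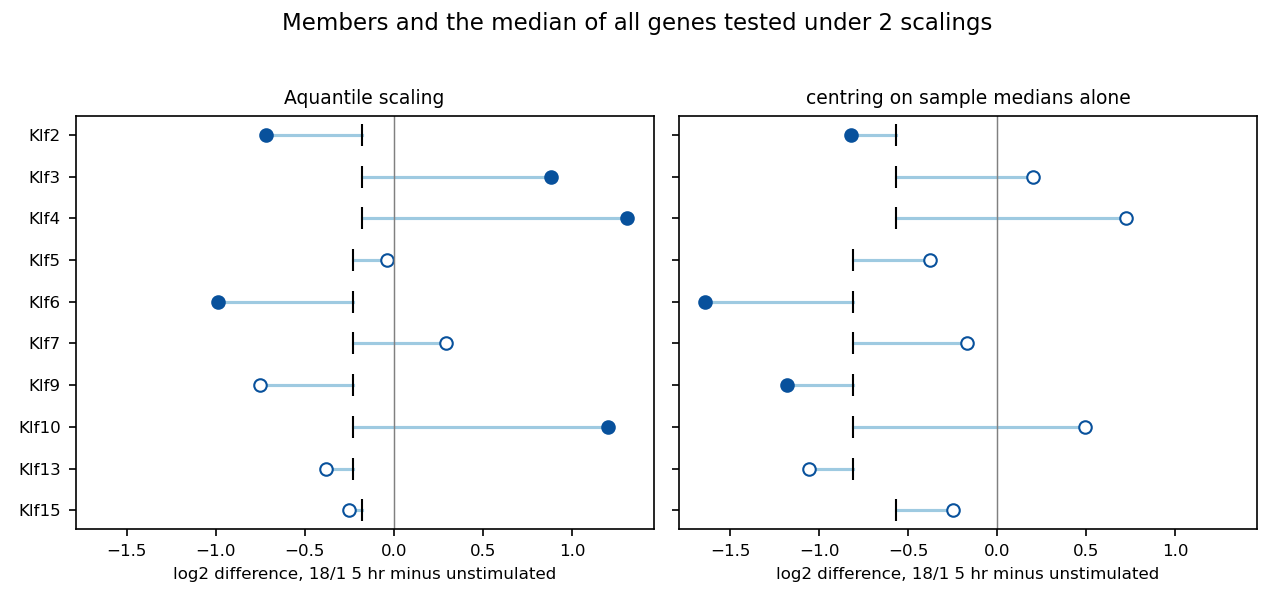
Log2 difference of each member between 18/1 5 hr and unstimulated neurons under Aquantile scaling and under scaling by medians alone. Points are members, filled where the adjusted p was under 0.05, and the black tick is the median of all genes in that fit, at -0.23 and -0.81 for the filter in all samples.

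The scaling moved the zero of the 18/1 5 hr comparison. The median of all genes was -0.23 under Aquantile and -0.81 under scaling by medians alone, and among called genes the share that was higher went from 33.7% to 8.73%. For the filter within a condition, in which Klf3 and Klf4 were tested, the medians were -0.18 and -0.57. Relative to the median of all genes in its own fit, Klf10 stood at 1.43 and 1.30 under these scalings, Klf4 at 1.49 and 1.28, Klf3 at 1.06 and 0.76, and Klf6 at -0.76 and -0.83. These 4 members kept their side of that median, but so did members that were not called, such as Klf5 (0.19 and 0.42) and Klf13 (-0.15 and -0.25). Klf15 changed side (-0.07 and 0.32). Subtracting the median takes out most of the shift between the scalings, so that keeping a side does not bear on the calls. The sizes given against 0 depend on the scaling.

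Relatives of these genes were measured on the same arrays. Of 16 other KLF and Sp factors, 2 passed the filter in all samples, and Klf16, a repressor, fell at 18/1 5 hr (-1.85, adjusted p = 5.4e-05) while Sp1 stood at -0.36 (adjusted p = 0.331). With the filter within a condition 11 were tested, of which 2 were higher and 4 lower, against 13.5% and 23.3% of all genes. Sp6 (4.17) and Sp4 (3.78) were higher, and Sp8 (-1.54) and Klf11 (-1.28), a TGF-beta-induced relative of Klf10, were among the lower ones. The mean of Sp6 at 18/1 5 hr was 12.05 ± 1.02 (SD, n = 4) against 7.88 ± 0.15, and that of Sp4 was 11.90 ± 1.25 against 8.13 ± 0.15. Neither gene passed the filter in all 20 samples, and both spread far more at 18/1 5 hr than in unstimulated neurons. The samples of 18/1 5 hr carried the mark for non-uniform spots at 5319 to 14642 spots. Whether these 2 rises rest on 1 array or on marked spots was not tested, which limits their sizes.

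Of 11 corepressors, coactivators and ubiquitin ligases that work with KLFs, 8 passed the filter in all samples, and 1 was higher and 1 lower at 18/1 5 hr, against 15% and 29.5% of all genes, with a median of 0.11 against -0.23 for all genes. Crebbp, the acetyltransferase CBP, rose by 1.29 (adjusted p = 0.00156). Hdac1, a histone deacetylase, gave -2.11 (adjusted p = 6.53e-05), but the probe that stands for it with the filter within a condition gave 1.11 (adjusted p = 0.00136), so that its probes differ in sign and no direction is given. With that filter all 11 were tested, 2 were higher and 0 lower, against 13.5% and 23.3% of all genes.

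The MEK5-ERK5-MEF2 cascade is known to induce Klf2 and Klf4. Of its 7 genes 6 were tested, 1 higher and 2 lower at 18/1 5 hr, against 15% and 29.5% of all genes, with a median of -0.08. With the filter within a condition 1 was higher and 0 were lower. Mef2a, a transcription factor at its end, rose by 2.24 (adjusted p = 1.33e-05) at 18/1 5 hr and by 1.91 (adjusted p = 0.000442) at 90/5 2 hr. The kinases at its start, Map3k3 (-1.20, adjusted p = 0.000421) and Map3k2 (-0.85, adjusted p = 0.0364), were the lower ones, and with the filter within a condition Map3k2 had an adjusted p of 0.0573 and the probe that stands for Map3k3 gave -0.38 (0.145).

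Of 7 genes reported as targets of KLFs, 6 were tested, 0 were higher and 3 were lower at 18/1 5 hr, against 15% and 29.5% of all genes, with a median of -0.82 against -0.23 for all genes. Among these, Cdkn1a, the cell cycle inhibitor p21, fell by 1.47 (adjusted p = 0.000426) and L1cam, an axonal adhesion molecule, by 1.33 (adjusted p = 0.00524). Between the patterns at 5 hr, where 45.4% of all genes were called, 29.6% higher, 2 were higher with 90/5, Cdkn1a among them (1.58, adjusted p = 0.000194), and 1 was lower, Cdkn1b, the inhibitor p27 (-1.17, adjusted p = 0.00122).

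The glucocorticoid receptor induces Klf9 and Klf15 in many tissues. Of the receptor and 5 of its responsive genes or relatives, 5 were tested, 2 were higher and 0 lower at 18/1 5 hr, against 15% and 29.5% of all genes, with a median of 0.44 against -0.23 for all genes. Fkbp5, a chaperone of the receptor, rose by 1.34 (adjusted p = 0.00135) and Nr3c1, the receptor itself, by 1.03 (adjusted p = 0.011). Between the patterns at 5 hr, a comparison with the same 18/1 5 hr samples in which 45.4% of all genes were called, both were lower with 90/5 (-1.24 and -1.12, adjusted p = 0.00229 and 0.00628). At 90/5 5 hr against unstimulated neurons 0 genes of these 4 groups and of the other KLF and Sp factors were called, where 0.0676% of all genes were.

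**Figure D5:**
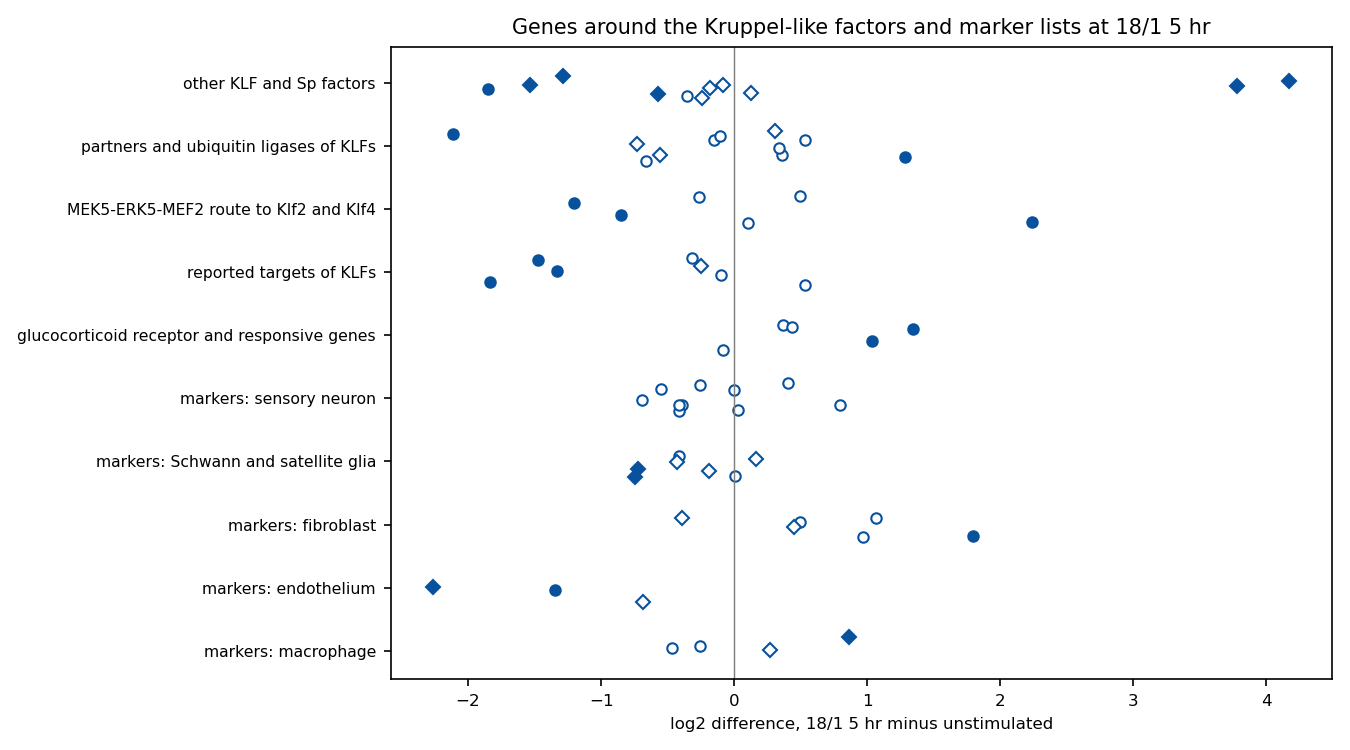
Log2 differences between 18/1 5 hr and unstimulated neurons for the genes of each group. Circles passed the filter in all 20 samples, diamonds the filter within a condition, filled symbols were called and the vertical scatter has no meaning. Sp6 and Sp4, which did not pass the filter in all 20 samples, lie farthest to the right, and Hdac1 and Klf16 are among those to the left.

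The genes whose signal followed a member most closely over the 20 samples were taken as the 2 with the highest Pearson r among the 10355 genes. For Klf9 these were Cwc15 (0.939) and Gpr176 (0.937), for Klf7 Add1 (0.914) and Larp1 (0.876), and for Klf6 Txlna (0.897) and Ifnar1 (0.845). For Klf10 they were Peli1 (0.853) and 4930568B11Rik (0.811), while Klf13 had Cdk16 (0.922) and Klf5 had Rnf169 (0.805) among its 2. The samples share arrays, slides and conditions, so these values describe likeness over this set of samples only.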

How the data were processed

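The authors deposited 2-colour array scans as spot intensity on a linear scale, the mean of each spot and the median of its local background, extracted with Agilent Feature Extraction 10.7.1.1 (slide 1) or 10.7.3.1 (slides 2 and 3) and not normalized. The later of the deposited annotations was used for all arrays. Its gene name differs from the earlier at 8333 of 44397 spots, and 1 further probe was named Klf9 only in the earlier. Probe coordinates are those of the files (mouse build NCBI37).

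Background was subtracted with normexp (offset 50), colours were normalized by loess with control spots at weight 0, and arrays were scaled with Aquantile in limma 3.58.1 (R 4.3.3, data.table package 1.17.8). Spots of a probe were averaged, 1 probe stood for each gene, and the model held condition and colour with the array as a random block (correlation 0.529, and 0.639 with the filter within a condition). P-values were adjusted by Benjamini-Hochberg over all genes of a fit. The fit was tested on simulated data. Figures were drawn with Python 3.11.15, numpy 2.4.6 and matplotlib 3.10.9. The number of samples, and for dim probes the background, limits the precision.

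All 10 members and lists of related genes and cell markers were named, at most 4 genes of a list, the called ones by size first. Members and lists were chosen with earlier results of these data known. Of the settings tried, 20 in kind, the background, scaling, filter, probe choice, weights, blocks, test and samples were varied. Samples of the same replicate number deviated together between unstimulated neurons and 18/1 2 hr (r of 0.411 to 0.716 over genes, all 4 pairs), on 1 slide, but not in every pair with 90/5 5 hr (down to -0.0531), and where such numbers exist they also stand for colour. In the labels of 18/1 5 hr and 90/5 2 hr both samples of an array carry the same dye, so these samples are named by array and colour. No promoter of Klf5 or Klf10 was analysed here. Some genes of the lists are not reported here by name.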

Additional observations from a re-analysis of the deposited data

Results flagged for a closer look

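In 4 of 60 groups of 4 samples, 1 sample lay far from the other 3, measured as its gap to the nearest sample over the whole range of the group. Chance gives such a gap in about 1 in 20 groups. The lowest unstimulated sample of Klf5 had a share of 0.847, the highest unstimulated sample of Klf6 0.854, the lowest 18/1 2 hr sample of Klf10 0.904 and the highest 90/5 5 hr sample of Klf13 0.832. The Klf6 sample was unstimulated replicate 3, at 12.78, without which the difference at 18/1 5 hr was -0.87 (adjusted p = 0.0533) against -0.99 with it.

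The stimulation patterns differed at 5 hr, as 90/5 minus 18/1, by 1.15 for Klf9, -0.94 for Klf3 and -1.32 for Klf4. Klf2 was flagged too, at a fitted value of 0.78. Its probe was well above background in 1 of 4 samples at 18/1 5 hr, so that 0.78 does not measure a size. Slide and pattern cannot be told apart in these values, and those of Klf9 and Klf4 were 0.04 and -0.69 without array 5.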

How the results depend on the processing

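The number of members called at 18/1 5 hr against unstimulated neurons, 2 of 6, was 1 with array means, 3 with weights for array quality (an estimate that stopped before it converged) or no spot filter, 4 with the background rule alone and 5 with the filter within a condition. At 90/5 2 hr, 1 became 0 with array means, weights for array quality, the background rule alone, centring on medians, every probe, the filter within a condition, no background subtraction, no spot filter, quantile normalization, saturated probes left out and the methods' t-test after Benjamini-Hochberg adjustment, and 2 with the methods' t-test. At 18/1 2 hr and 90/5 5 hr, 0 became 2 and 3 with weights for array quality and 1 and 2 with the methods' t-test. Between the patterns at 5 hr, 1 became 0 with array means, no background subtraction, only the conditions compared and the adjusted t-test, 2 with the background rule alone, centring or no array block, and 3 with the filter within a condition or no spot filter. Between 18/1 5 hr and 2 hr, 0 became 2 with weights, the background rule alone, centring or no spot filter, 3 with the filter within a condition or no array block, and 1 with the methods' t-test. Between 90/5 2 hr and 18/1 5 hr, 0 became 1 with weights, centring or the methods' t-test and 2 with no array block. The cause was not tested.

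With centring on medians the count at 18/1 5 hr stayed at 2 but Klf9 took the place of Klf10, which changed sign between the patterns at 5 hr (0.20) and between 90/5 2 hr and 18/1 5 hr (0.067). Among the 6 members that passed the filter in all samples, leaving out 1 sample or array gave 1 to 3 called at 18/1 5 hr and 0 to 1 at 90/5 2 hr. It gave 0 to 2 between the patterns at 5 hr, between 18/1 5 hr and 2 hr and between 90/5 2 hr and 18/1 5 hr, and 0 to 0 in the other 4 comparisons. Outside these 6, leaving out array 4 called Klf15 between 90/5 2 hr and 18/1 2 hr (adjusted p = 0.0292, limma) and between 18/1 5 hr and 2 hr (0.00354). Such runs turned Klf15 between 90/5 2 hr and 18/1 2 hr (-2.93 to 0.085) and between 18/1 5 hr and 2 hr (-2.95 to 0.067, the latter without array 3), and Klf9 between 18/1 5 hr and 2 hr (-2.10 to 0.13, the latter without array 5). Of 22 differences with an unadjusted p under 0.05, 5 changed sign in some run, and of 68 others 40 did. The replicate block could be fitted for 2 comparisons. At 18/1 2 hr, where all 4 pairs deviated together, it changed no call (0 members, Klf10 at 0.71 with adjusted p = 0.242). At 90/5 5 hr, where the numbers do not pair the samples, it gave 1 member in place of 0, namely Klf6. With the slide as a block 0 members were called in both comparisons within a slide. Signal over background limits Klf2, Klf15 and the dim probe of Klf13, and saturation limits Klf7.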
